A study of Mus musculus with 2 samples.

Results

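Genes whose RNA was assigned mainly to transcripts with retained introns were examined in nuclear RNA of mouse macrophages. A gene was a member if it has a protein-coding transcript, reached 10 TPM or more in both libraries, and had over 50% of its summed transcript TPM on transcripts of the GENCODE class retained_intron in both. TPM is a length-corrected level, scaled to a fixed total per library. Of 3282 protein-coding genes at that level, 239 (7.28%) passed both thresholds. Ribosomal protein, SR protein, hnRNP, interferon regulatory factor and Lilr genes and 13 single genes were set aside by the rule, which removed 25 and left 214 members. The members were thus chosen by the RSEM gene TPM and transcript TPM shares of these libraries, which are described below and not tested, and with 1 group no comparison between conditions exists.

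Most introns are cut out while a gene is still being transcribed. Some messages keep an intron, and such RNAs are commonly held in the nucleus or, if exported, degraded by nonsense-mediated decay, because the intron usually brings a stop codon into the reading frame. Genes of the splicing machinery are known for retained introns in many tissues, and myeloid cells are known to use retention during their maturation. GENCODE gives the class retained_intron to an alternative transcript that contains sequence which other transcripts of the gene splice out. Many of these models are partial and begin or end within an intron.

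The samples are 2 libraries of RNA depleted of ribosomal RNA from primary bone marrow-derived macrophages of the mouse strain C57BL/6J. Both received the same treatment: 12 h with 100 ng/ml Lipid A, the active part of endotoxin and a ligand of the receptor TLR4, 12 h without it, then 60 min with it again at that dose. One label calls the RNA nucleoplasmic and another names the whole nucleus. The libraries are labelled as biological replicates but share a donor identifier, took 1 µg of RNA (replicate 1) and 500 ng (replicate 2), and their spread may be partly technical; sex and age were not collected. Annotated genes held 23630328 expected counts in replicate 1 and 15687634 in replicate 2, and the median member 1642 and 1195. All 10 macrophage markers (Csf1r, Adgre1, Cd68 and others) reached 10 TPM in both libraries. Of the 34 markers of other cell types, only Pf4 did. None of the markers was a member. Reads from unfinished nuclear transcripts and from completed RNAs that keep an intron cannot be told apart in these transcript estimates.

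Across the members, the median share on retained-intron transcripts was 59.3% in replicate 1 and 64.3% in replicate 2, where all 3282 genes had medians of 12.4% and 13.8%. Of the 3282, only 2293 have an annotated retained-intron transcript, and the medians of these were 23.1% and 25.55%. Members had a median of 4 such transcripts, against 2 in expressed genes with any. Protein-coding transcripts held a median of 34.0% and 29.6% of a member's TPM. The median gene level of the members was 33.3 and 24.3 TPM in replicates 1 and 2, of which protein-coding transcripts had 9.57 and 6.51 TPM. By the second quantifier the median coding level was 3.875 TPM, as the mean of both libraries' medians, against 8.04 TPM by the rule's measure. Its median retained-intron share was close to the rule's (63.4% against 61.8%). Its gene levels are not set beside these, so the gap is not a measure of the coding share. By the rule's measure, for 109 members the coding transcripts were below 10 TPM in both libraries although the gene was above it, and for 71 they reached 10 TPM in both. The members supplied 18.6% of all retained-intron TPM of the expressed genes in each library, against 4.49% and 4.22% of their gene TPM.

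Shares above 90% in both libraries were found for 6 members. Slc27a1, a fatty acid transport protein gene, had 98.6% and 96.9%, with 0.60 and 0.87 TPM left on coding transcripts out of 42.2 and 27.6 TPM. Tmem132a, which encodes a transmembrane protein, had 96.8% and 97.0%. The predicted gene Gm21188 had 94.5% and 96.8%, the exocyst-like gene Exoc3l4 93.4% and 93.7%, the sperm acrosome gene Spaca6 90.8% and 95.9%, and the deubiquitinase gene Usp15 91.0% and 91.6%. The replicates of these genes lay within a few points of each other. Another 21 members were above 75% in both libraries, for 27 in all, and 59 members were below 60% in both. At the lower edge stood Taz (the tafazzin gene, 50.2% and 50.1%), the proteasome ubiquitin receptor gene Adrm1 (50.1% and 56.3%), Iqgap1 (51.9% and 50.1%) and the ubiquitin ligase gene Cop1 (56.6% and 50.3%). Just outside it were Plscr1 (55.9% and 49.96%), Rgl2 (49.98% and 49.89%), Crtc2 (54.4% and 49.8%) and Mtch1 (49.8% and 68.7%).

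**Figure D1:**
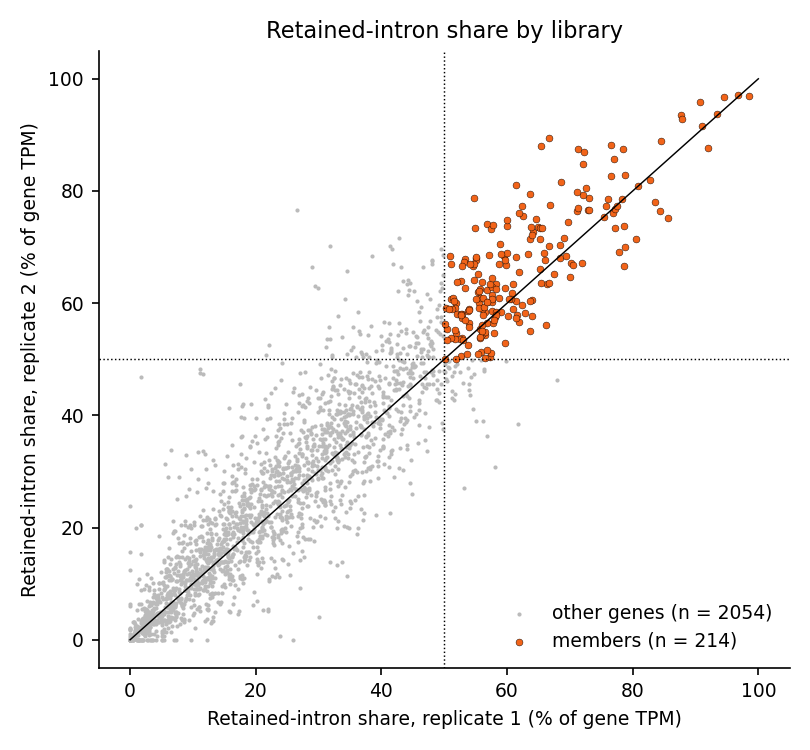
Retained-intron share of each gene, as percent of its summed transcript TPM, in replicate 1 (x axis) and replicate 2 (y axis); orange points are the 214 members, grey points 2054 other genes at 10 TPM with an annotated retained-intron transcript, the line marks equal shares and the dotted lines 50%. Members fill the upper right quadrant by rule, and 149 of them lie above the line.

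By level the members were led by Rsrp1, which encodes an arginine- and serine-rich protein (ENSMUSG00000037266.18, mm10 chromosome 4, 134923592 to 134927671, plus strand). Its gene level was 582 and 270.2 TPM in replicates 1 and 2. Its single retained-intron transcript held 300.2 and 163 TPM, its coding transcripts only 17.1 and 7.23 TPM, and the rest was on transcripts of the class processed_transcript (45.5% and 36.9%). Ptprc encodes the leukocyte phosphatase CD45 (chromosome 1, 138062861 to 138175708, minus strand). It had 414 and 334 TPM, with 263 and 238 TPM on 8 retained-intron transcripts and 150.4 and 95.3 TPM on coding ones. Vim, the intermediate filament gene, had 407 and 297.5 TPM, with shares of 59.0% and 68.7%. For Zc3h7a, a zinc finger protein gene, the levels were 309.7 and 288 TPM and the shares 77.6% and 77.4%. Replicate 1 was higher in gene TPM for all of these.

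Further down the 10 highest, Actr3 of the actin-branching Arp2/3 complex had 292 and 184 TPM (shares 50.4% and 55.5%). Sat1, the polyamine acetyltransferase gene, had 259 and 153 TPM (57.8% and 73.9%). H2-Q7, a nonclassical class I histocompatibility gene of a family with near-identical copies, had 227.5 and 175 TPM (72.1% and 84.9%). Iqgap1, a scaffold of the cell cortex, had 217 and 155 TPM. Tmem132a was nearly equal in the 2 libraries, at 165 and 175 TPM, of which coding transcripts had 5.22 and 5.18 TPM. The replicates differed in TPM scale: the median log2 ratio of replicate 2 over replicate 1 in TPM was -0.47 over all expressed genes and -0.33 over the members, so lower TPM in replicate 2 is common to most genes.

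**Figure D2:**
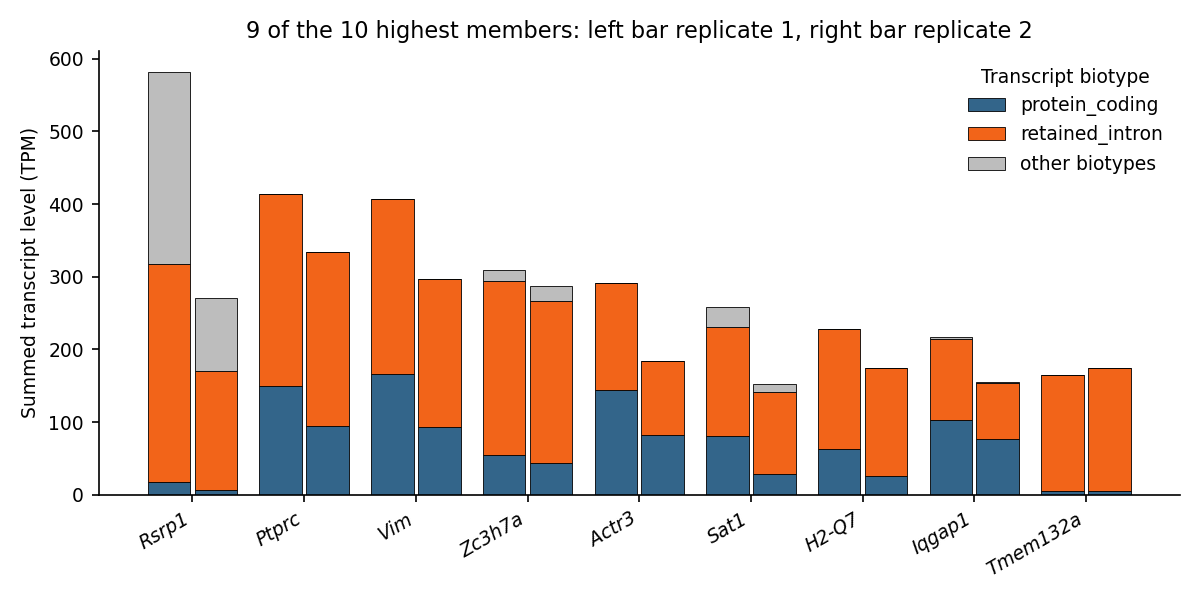
Summed transcript level in TPM (y axis) of 9 of the 10 members with the highest mean level (x axis), left bar replicate 1 and right bar replicate 2, split into protein_coding (blue), retained_intron (orange) and other biotypes (grey). The orange part exceeds the blue in every bar, most in Rsrp1 (300.2 against 17.1 TPM in replicate 1) and Tmem132a.

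Which introns were involved was read from the annotation. For each member the retained-intron transcript with the highest mean TPM was taken as its leading transcript. It held a median of 44.7% of a member's retained-intron TPM, and over 90% in only 21 of the 214 members. Results for leading transcripts thus cover only part of the retained-intron share of most members. In 64 members (29.9%) it holds at least 1 whole intron of a protein-coding transcript; in 66 it holds none whole but begins inside an intron, in 58 it ends inside one, in 21 it does both, and in 5 neither. Among 2031 other genes with such a transcript, 610 (30.03%) have a leading transcript with a whole intron, a share close to that of the members. Other genes had more leads that only end in an intron (37.2% against 27.1%) and fewer that only begin in one (22.9% against 30.8%). Of the members' retained-intron TPM, 31.4% and 30.3% was on transcripts with a whole intron. Counting only such transcripts, the median share of the members was 9.84% and 12.0%, and 27 kept a share over 50% in both libraries, among them Rsrp1, H2-Q7, Tmem132a, Tap2, Psmb8, Ncl, Arglu1 and Thoc1.

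The introns below show what those transcripts carry. All are spliced out of a coding transcript of the gene between coding exons, coordinates are on mm10, and sequence comes from the GENCODE M21 transcript that holds the intron, read 5′ to 3′ on the gene's strand. For 3 of the highest members the introns are long, so only the exon-intron borders are given, with the first and last 2 intron bases in capitals: 3 exon bases and 6 intron bases at the donor, 20 intron bases and 3 exon bases at the acceptor. They are intron 3 of 4 of Rsrp1 (1302 bases, chr4:134925433-134926734, plus strand), intron 5 of 32 of Ptprc (2125 bases, chr1:138117895-138120019, minus strand) and the 412-base intron 10 of 10 of Tmem132a (chr19:10859152-10859563, minus strand).
Rsrp1 donor: gagGTaagt
Rsrp1 acceptor: aaaattctcttcctctttAGcat
Ptprc donor: cagGTttgg
Ptprc acceptor: ggtgacccttctgattgcAGgtg
Tmem132a donor: cagGTgatg
Tmem132a acceptor: tgtgtccgtgtgccctgcAGgag
All have the GT and AG ends of the major class of introns. Translation that ran on into the intron in the frame of the coding transcript would meet a stop codon at base 49 of the intron in Rsrp1, base 15 in Ptprc and base 49 in Tmem132a.

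Short introns are given whole, with the GT and AG ends and the first in-frame stop codon in capitals. H2-Q7 is among the 10 highest members, and the other 5 genes were chosen after their values were seen, to show stops early, late and absent. The introns are intron 4 of 6 of H2-Q7 (126 bases, chr17:35442552-35442677, plus strand), intron 10 of 13 of the nucleolin gene Ncl (190 bases, chr1:86352320-86352509, minus strand) and intron 3 of 6 of the immunoproteasome gene Psmb8 (190 bases, chr17:34199381-34199570, plus strand). The others are intron 6 of 11 of the peptide transporter gene Tap2 (162 bases, chr17:34212068-34212229, plus strand), intron 4 of 12 of the splicing kinase gene Clk3 (276 bases, chr9:57758351-57758626, minus strand) and intron 9 of 11 of Aup1 (99 bases, chr6:83056879-83056977, plus strand).
H2-Q7 intron 4: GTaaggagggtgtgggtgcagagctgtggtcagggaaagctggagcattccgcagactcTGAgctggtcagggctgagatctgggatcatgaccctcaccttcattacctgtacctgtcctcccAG
Ncl intron 10: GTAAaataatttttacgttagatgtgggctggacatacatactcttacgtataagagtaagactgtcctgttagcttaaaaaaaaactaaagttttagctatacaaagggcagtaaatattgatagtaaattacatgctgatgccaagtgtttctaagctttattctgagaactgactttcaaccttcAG
Psmb8 intron 3: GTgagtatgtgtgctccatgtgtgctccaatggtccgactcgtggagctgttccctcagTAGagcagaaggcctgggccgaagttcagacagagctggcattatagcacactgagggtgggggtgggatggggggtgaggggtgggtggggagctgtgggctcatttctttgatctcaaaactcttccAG
Tap2 intron 6: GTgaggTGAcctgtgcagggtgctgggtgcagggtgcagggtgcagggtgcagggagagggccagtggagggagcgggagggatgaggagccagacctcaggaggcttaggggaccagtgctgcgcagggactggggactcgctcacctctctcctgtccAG
Clk3 intron 4: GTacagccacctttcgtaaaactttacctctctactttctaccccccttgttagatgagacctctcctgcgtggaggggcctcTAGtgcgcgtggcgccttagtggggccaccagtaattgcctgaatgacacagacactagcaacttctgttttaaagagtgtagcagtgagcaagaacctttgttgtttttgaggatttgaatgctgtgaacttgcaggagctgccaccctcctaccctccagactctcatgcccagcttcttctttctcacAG
Aup1 intron 9: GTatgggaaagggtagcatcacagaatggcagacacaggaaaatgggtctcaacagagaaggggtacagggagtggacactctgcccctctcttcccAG
In Ncl the stop begins at base 2, inside the donor site itself. It begins at base 7 in Tap2, base 60 in H2-Q7 and Psmb8, and base 84 in Clk3. The intron of Aup1, an acyltransferase-like gene of the endoplasmic reticulum, has no in-frame stop and a length divisible by 3, and it was the one such intron among the members' leading transcripts. GC content ran from 32.6% in Ncl to 67.3% in Tap2. On the other strand, the Psmb8 intron overlaps exons of the antisense gene Gm20496, the Tap2 intron those of Gm15821 and the Tmem132a intron those of the protein-coding gene Slc15a3. Whether counting used strand is not given in the sources used here, so reads of these partners cannot be told apart. Exons of another gene overlap 12 of the 104 introns of the members' leading transcripts (11.5%), against 6.49% in other genes. Over whole introns of any retained-intron transcript above 0 TPM the order was reversed, with 20 of 358 in members (5.59%) against 6.31% in other genes. The leading transcript overlaps an exon on the other strand in 30 members (14.0%, against 9.21% of other genes) and on the same strand in 6 (2.80%, against 5.12%).

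In all, the 64 leading transcripts hold 104 introns, of which 2 are gaps of under 30 bases (in Hyi and H2-Q7) and some are alternative versions of one intron. Their median length was 499 bases, where all annotated introns of the members have a median of 1416 bases. An intron had to fit whole inside an exon of the leading transcript, which limits its length, so this gap is partly set by the definition. Of the 104, 98 (94.2%) have GT and AG ends, against 97.6% of such introns in other genes. Over whole introns of any retained-intron transcript above 0 TPM, the values were closer, at 97.5% in members and 98.15% in other genes. None has the U12-type donor, searched as GTATCCT or ATATCCT on the gene's strand at the first intron base. In other genes it is also rare, with 6 introns (0.581%). The median GC content of the 104 was 48.3%. Coding exons flank 91 of them, and 85 of these (93.4%) hold an in-frame stop, at a median of base 45 for the first. In 18 introns of 13 genes, among them Polg and, with several introns, Nup88, that stop is at base 2, within the donor. The median first stop in other genes was at base 35, and no count at base 2 is given for them. In other genes the leading transcripts hold 1032 introns of 610 genes, with a median of 349 bases, GC content of 49.2% and an in-frame stop in 90.1% of those between coding exons. Taking the longest such intron of each gene, the members' median was 953 bases (n = 64) and that of other genes 509 bases (n = 609).

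**Figure D3:**
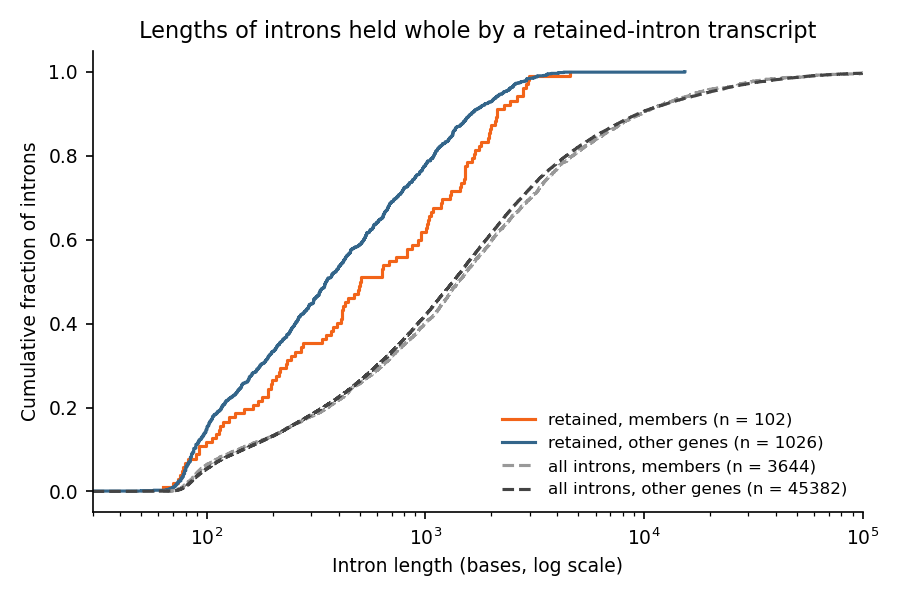
Cumulative fraction of introns (y axis) by length in bases (x axis, log scale); solid lines are introns held whole by leading retained-intron transcripts of the members (orange, n = 102 of 30 bases or more) and of other genes (blue), dashed lines all annotated introns of the same sets. Both solid lines lie left of the dashed ones, and the orange line lies right of the blue over most of the range. Introns of the solid lines had to fit whole inside an exon, which limits their length.

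For 18 members the share was over 50% in both libraries by TPM, by counts and by the second quantifier (both described next), and also with only whole-intron transcripts counted; they include H2-Q7, Tmem132a, Tap2, Psmb8, Ncl, Il17ra, Krit1, Thoc1 and Arglu1. Of the 18, Tmem132a, Tap2 and Psmb8 have introns that overlap exons on the other strand, as above. So does Stub1, another of the 18, with exons of the protein-coding gene Jmjd8 on the other strand of its intron. The leading transcripts of Arglu1 and Stub1 also overlap an exon of a different gene on the same strand. The part of the overlapping genes' reads in the shares was not tested. Il17ra has 1 retained-intron transcript, which holds introns 9 and 10 of 12 (683 and 199 bases), and it had 82.8% and 81.9% of the gene's TPM. Tap2 and Arglu1 likewise have a single such transcript. In Ncl, transcripts with a whole intron held 71.3% and 82.3% of the gene, and its lead holds introns 9 and 10 of 13 (492 and 190 bases). Krit1, which encodes a partner of the GTPase RAP1, held 63.4% and 62.0% on such transcripts, and Psmb8 77.8% and 69.2%. By contrast Usp15, Zc3h7a and Gm21188, with shares of 75% or more in both libraries, had no TPM on a transcript that holds a whole intron. Their retained-intron transcripts begin or end part-way through an intron, in Usp15 in all 8 of them.

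The share depends on how it is counted. By expected counts, which do not correct for length, the median share of the members was 49.3% in replicate 1 and 55.3% in replicate 2, and 101 of 214 were over 50% in both libraries. A second quantifier run on the same reads gave median TPM shares of 61.4% and 65.3%, with 171 members over 50% in both. All 3 measures were over 50% in both libraries for 86 members, and the rule's own measure alone for 28. Leading retained-intron transcripts are short, with a median of 1974 bases against 3196 for the leading coding transcript, and 145 are shorter than it. Of those 145 members, 43 (29.7%) were over 50% by counts in both libraries. Among the 69 whose lead is not shorter, 58 (84.1%) were. Members with a whole intron in their lead also passed by counts more often (44 of 64, 68.8%) than the others (57 of 150), and their leads are longer (medians 3062 and 1600 bases). The splicing gene Sart1 (54.96% and 73.4% by TPM) had 10.6% ± 3.76 by counts (SD, n = 2), and its lead has 494 bases. By the second quantifier the share was lowest for Igf2bp2, an mRNA-binding protein gene, with 16.4% and 12.1% against 65.5% and 88.0% by the rule. Next came the interferon-induced nuclear body gene Sp110 (29.2%, mean), Mthfsl (31.9%), the cyclin-dependent kinase gene Cdk14 (32.3%) and Lrrfip2 (33.5%).

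**Figure D4:**
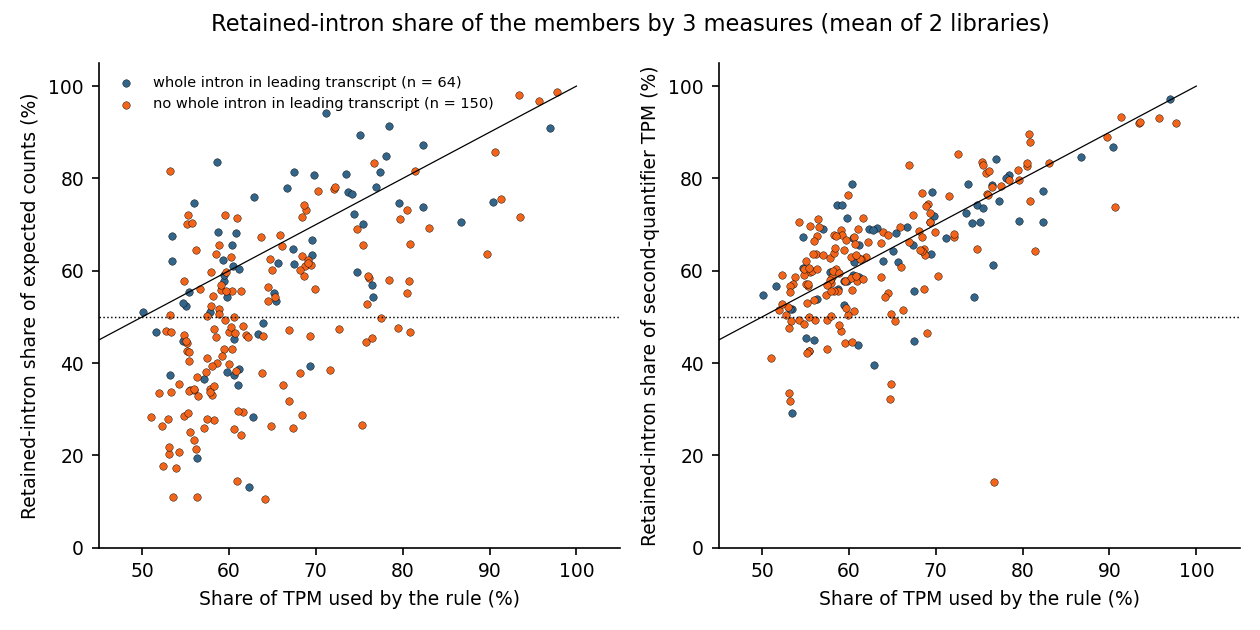
Retained-intron share of each member by expected counts (left y axis, %) and by TPM of the second quantifier (right y axis, %) against the TPM share that the rule used (x axes, %), as means of 2 libraries; blue points have a whole intron in the leading transcript (n = 64) and orange points do not (n = 150), the line marks equality and the dotted line 50%. Many members fall below 50% by counts, with Sart1 lowest at 10.6%, while Igf2bp2 stands apart by the second quantifier at 14.2%.

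Roles were assigned by hand from gene names and to members only, so role counts have no share over all expressed genes beside them. The largest role was RNA splicing and processing, with 34 members. Their median share was 57.5% in replicate 1 and 63.8% in replicate 2. By counts it was 61.6% (mean of replicates), above the 52.3% of all members; 19 of the 34 passed by counts in both libraries and 14 by all 3 measures. Their 17 whole retained introns had a median of 276 bases and 41.7% GC. These lie in only 8 genes, and many are introns of Nup88 or alternative versions of them, of 92 to 243 bases. The medians thus lean on 1 gene, and introns of the other genes reached 2783 bases (Rbm5). Of 38 splicing-associated RNA-binding proteins and kinases at 10 TPM, 10 (26.3%) were past both thresholds, and all 10 were members. Beside this, 7.28% of all genes were past both thresholds before the exclusions. Of the 38, 34 have an annotated retained-intron transcript, where 2293 of all 3282 genes do, so the list and all genes differ in annotation. The list was chosen with earlier results of these data known and does not include the SR and hnRNP genes. Its median share was 38.3%. In it Arglu1, a coactivator that regulates splicing, had 76.5% and 88.3%, all on 1 transcript that holds intron 2 of 3 (2280 bases). Rbm5, a splicing regulator of apoptosis genes, had 71.1% and 76.5% on 13 retained-intron transcripts. Clk3, a kinase of SR proteins, had 59.0% and 58.4% with introns 3 and 4 of 12 in its lead.

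Further members on that list were the U1-associated genes Luc7l (57.7% and 61.5%) and Luc7l2 (63.3% and 68.8%), Rbm6 (52.8% and 57.4%), Rbm25 (56.9% and 60.2%), the muscleblind gene Mbnl2 (56.8% and 62.3%) and the cyclophilin gene Nktr (51.8% and 53.7%). Every one of these 6 was higher in replicate 2. Clk1 and Clk4, kinases of the same family, were not members, because 1 library of each was under 50% (Clk1 54.6% and 41.1%, Clk4 46.7% and 54.9%). Among 16 major spliceosome genes at 10 TPM, 3 were members: U2af1, which recognises the 3′ splice site (60.0% and 68.9%), the U1 protein gene Snrnp70 (53.2% and 67.3%) and Prpf39 (75.4% and 75.4%). Of 12 minor spliceosome genes, whose complex removes U12-type introns, 3 reached 10 TPM and 1 was a member, Zcrb1 (69.4% and 68.4%). Of 7 genes of nonsense-mediated decay and the exon junction complex at 10 TPM, Smg9 was a member (56.1% and 63.8%). Thoc1 of the TREX export complex, 1 of 9 export genes at 10 TPM, had 87.9% and 92.9% and 2.78 and 1.60 TPM on coding transcripts. None of 9 exosome genes at 10 TPM and neither Ogt (46.6% and 51.9%) nor Mat2a (15.3% and 17.9%) was a member. Beside these counts, 239 of all 3282 genes (7.28%) were past both thresholds before the exclusions. The lists hold few genes at 10 TPM, so their counts are not read as a trait of a list.

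**Figure D5:**
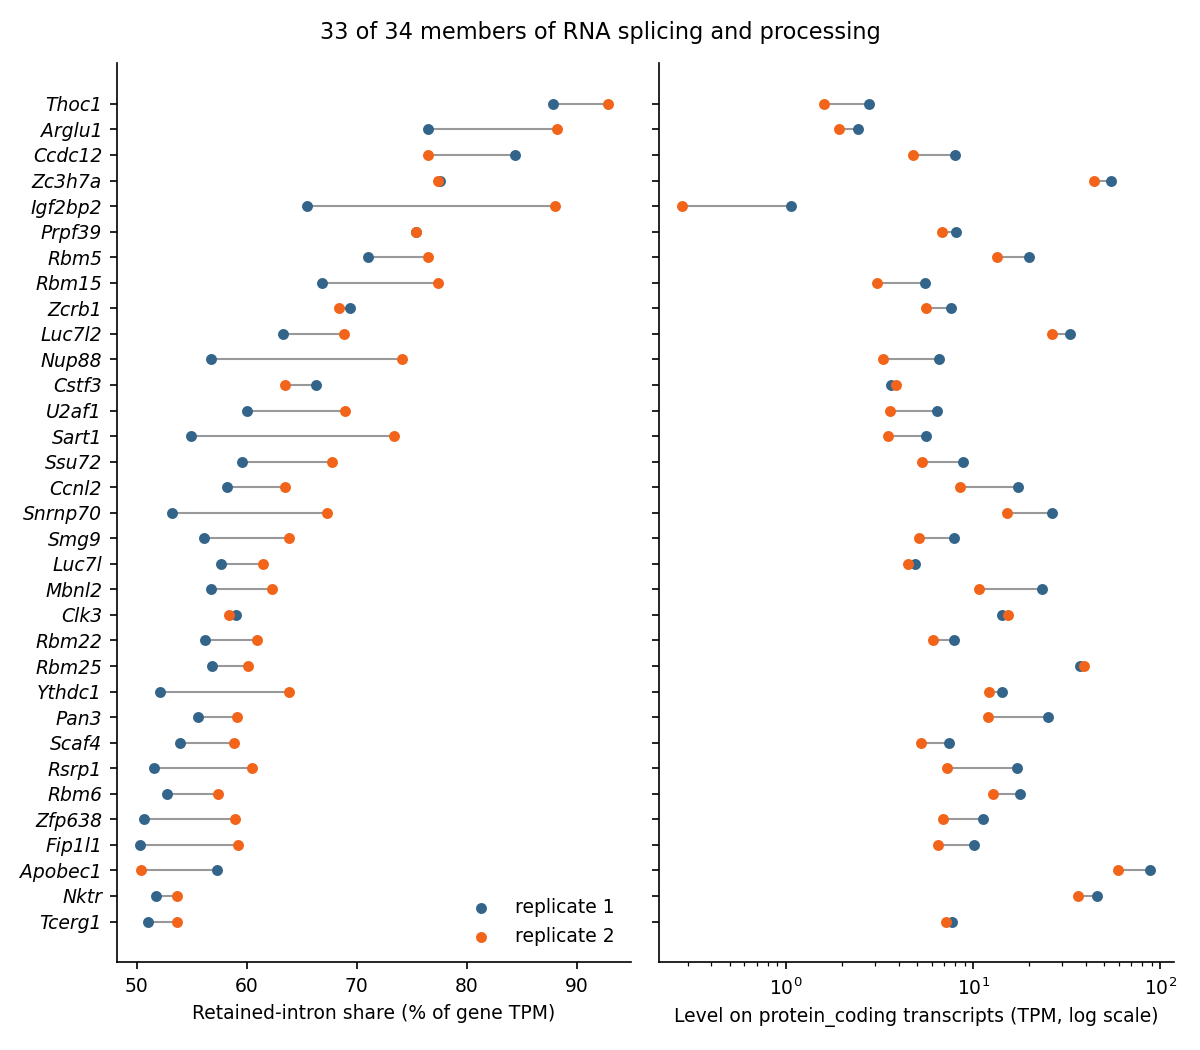
Members of RNA splicing and processing (33 of the 34 are drawn), ordered by mean share: retained-intron share in percent of gene TPM (left, x axis) and level on protein-coding transcripts in TPM (right, x axis, log scale), with replicate 1 in blue, replicate 2 in orange and a line joining them. Thoc1 has the highest share, at 87.9% and 92.9%, and 27 of the 33 drawn have the higher share in replicate 2.

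Immune receptors and effectors made up 21 members and were the most abundant role, with median gene levels of 69.5 and 38.5 TPM. Shares ran from 53.5% (Sp110) to 82.3% (Il17ra, the interleukin 17 receptor) as means, and 14 of 21 passed by counts in both libraries. Several of these genes, including 2 of antigen processing, had lower levels in replicate 2. Tap2 of the peptide transporter had 84.6 and 30.2 TPM, with coding transcripts at 19.5 and 5.25 TPM and shares of 76.5% and 82.6%. Psmb8 of the immunoproteasome had 52.4 and 19.7 TPM, coding levels of 11.6 and 6.07 TPM and shares of 77.8% and 69.2%. Uba7, the activating enzyme for ISG15, had 203.5 and 79.9 TPM with shares of 70.5% and 66.8%. Aif1, which encodes the macrophage actin-binding protein IBA1, had 144 and 53.1 TPM with shares of 51.9% and 60.1%. The levels of these 4 genes differed more than 2-fold in TPM between the libraries, and their shares are above 50% by the rule. In TPM, 11 of the 214 members and 295 of 3282 expressed genes (8.99%) were that far apart.

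Scaled by TMM on expected counts, which removes the shift in TPM, 2 members were over 2-fold apart between replicates: Aif1 (log2 ratio of replicate 2 over replicate 1, -1.14) and Tap2 (-1.04). That is 0.935% of the members, beside 67 of 3282 expressed protein-coding genes (2.04%); of these, 47 genes (1.43%) were lower in replicate 2, as both members were, and 20 (0.609%) higher. Over all 14052 genes tested, low ones included, 8.6% were over 2-fold apart. Psmb8 (-0.97), Uba7 (-0.86) and the splicing gene Ccdc12 (-0.80) followed. In the other direction stood the endocytosis gene Fchsd2 (0.99), the cystine transporter gene Slc7a11 (0.97), the bicarbonate transporter gene Slc4a7 (0.94), Foxp4 (0.83) and the annexin gene Anxa7 (0.77). Over all 214 the ratio ran from -1.14 to 0.99 with a median of 0.11, against -0.04 over all expressed genes, and 77 members were lower in replicate 2. Centred gene sums of the second quantifier put none of the members past 2-fold, with 1.52% of expressed genes past it.

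The share itself was higher in replicate 2 in 149 of 214 members (69.6%), by a median of 3.54 points over all members. Of 1988 other expressed genes with a share above 0, 1241 (62.4%) were higher in replicate 2, with a median difference of 1.68 points, so the tilt is common to most genes. By the second quantifier 147 members were higher in replicate 2, by counts 156, and by both quantifiers 128. Differences of over 10 points by the rule's measure were found in 36 members upward and 3 downward. For other genes no counts past 10 points, by the second quantifier or by expected counts are given, so these are not read as a trait of the members. Replicate 2 had the smaller RNA input and fewer counts, and the part of these in the tilt was not tested.

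Metabolic, mitochondrial and transport genes (29 members) had median shares of 57.8% and 67.0%, with Slc27a1 highest. The hydroxypyruvate isomerase gene Hyi had no TPM on coding transcripts in either library, with shares of 61.4% and 60.4% and most of the rest on transcripts of the class nonsense_mediated_decay (38.6% and 39.7%). Similarly Psd, an exchange factor for ARF6, had 0.05 and 0 TPM on coding transcripts beside 20.8 and 13.1 TPM on retained-intron ones. Members of membrane traffic, lysosome and autophagy numbered 24, with median shares of 58.3% and 59.8%. Their median by counts was 44.7%, and 7 passed by counts in both libraries. Becn1, the autophagy gene for Beclin 1, had 1.92 and 1.97 TPM on coding transcripts of 37.5 and 23.6 TPM, with shares of 78.8% and 70.02%.

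Transcription and chromatin genes (23 members) had median shares of 60.1% and 60.8% and the lowest median by counts, 42.7%. Rfc2 of the clamp loader had the highest mean share there, 89.8%, and the chromatin genes Tet2 (50.4% and 53.5%), Eed (63.7% and 79.5%) and Bap1 (52.6% and 50.5%) were also members. Cytoskeleton and small GTPase genes (21) ranged in mean share from 51.02% (Iqgap1) to 90.6% (the dynactin gene Dctn6). Kinases, phosphatases and signalling genes (12) included both mTOR complex scaffolds, Rptor (53.3% and 62.7%) and Rictor (54.7% and 67.0%). Among ubiquitin and proteasome genes (14), 13 passed by the second quantifier and 5 by counts. The 7 genes of ribosome assembly and translation had the highest median shares, 65.3% and 72.2%. Ncl led them with 84.5% and 88.8%, of 37.6 and 37.2 TPM in all, and 6 of the 7 passed by counts in both libraries. The remaining 29 members were given no role, with median shares of 61.5% and 66.7%.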

How the data were processed

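The authors deposited RSEM-format tables of genes and transcripts, and a kallisto-format table of transcripts (the second quantifier), for each of 2 libraries. Per the deposited readme files, mm10 and GENCODE M21 were used. Deposited expected counts, and estimated counts of the second quantifier, share out reads that fit several transcripts, so fractions occur. The deposited TPM is corrected for effective length. The sources used here do not give the aligner, tool versions or strand setting. Paralogs, overlapping and antisense genes can exchange reads. Rows that name no annotated gene held 1.19% and 0.215% of expected counts and were left out.

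Transcript classes came from the second quantifier's identifiers, introns and sequences from GENCODE M21. An intron counted as retained if it lay whole inside an exon with 3 exon bases on each side. No genome sequence was used, so introns held by no transcript have no GC value. Expected counts were rounded and scaled by TMM over the 14052 genes averaging at least 10 (edgeR 4.0.16, R 4.3.3, adding 0.5). DESeq2 1.42.0 gave alternative size factors. Steps were checked on simulated data. No p-values are given.

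Members and lists were chosen with earlier results of these data known, and roles were assigned after the members were known. Genes were named by rule: the 10 highest, the 6 highest shares, 4 on each side of the threshold, 5 in each direction between replicates, 5 lowest by the second quantifier, and list members. Others were picked after their values were seen. Values of 2 named members are left out here. Alternatives covered the floors, the share, the quantifier, the scaling and each library alone.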

Additional observations from a re-analysis of the deposited data

How the results depend on the processing

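The number of members (214) moved with the rule: 333 with a floor of 5 TPM and 130 with 20 TPM, 424 with a share over 40% and 92 with over 60%, and 307 to 343 with either library alone. The share of expected counts gave 161 genes (101 of them members), the second quantifier 288 (171) and the posterior mean TPM 227 (205). The median share (61.8% ± 3.52; SD, n = 2) was 52.3% by expected counts, 54.4% by estimated counts of the second quantifier, 63.4% by its TPM and 59.3% to 64.3% with either library alone. Counting only transcripts that hold a whole intron, an alternative chosen after seeing the data, left 27 members and a median share of 10.9%. The median coding level (8.04 TPM) was 3.875 TPM by the second quantifier, whose gene levels are not set beside it, and 6.51 to 9.57 TPM with either library alone. Over 2-fold apart were 2 members by TMM, by DESeq2 size factors and without a filter on counts, beside 2.04% to 2.07% of expressed genes. By TPM without centring there were 11, beside 295 of 3282 expressed genes (8.99%). By the second quantifier there were 0, beside 1.52%. Whole introns of any retained-intron transcript above 0 TPM had a median of 355.5 bases and 48.25% GC. Those of 30 bases or more in the leading transcripts had 504 bases and 48.1%, and the longest of each gene 953 bases and 47.0%, both chosen after seeing the data. No paired analysis was possible because the series has only 1 group. With 2 libraries, SDs are imprecise. Depth was a median of 1642 and 1195 expected counts per member, spread over several overlapping transcripts, and how far their division among transcripts affects each share was not tested beyond the second quantifier.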
